A study of Mus musculus with 4 samples.

Results

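The genes of the cytosolic ribosomal proteins were followed in bulk RNA-seq of sorted mouse regulatory T (Treg) cells with and without the transferrin receptor TfR1. They were taken by name and not by their values: rows whose mouse symbol begins with Rpl or Rps and a number, with *Rpsa*, *Rplp0*, *Rplp1* and *Rplp2*, that are protein coding, are no pseudogene (-ps) and no S6 kinase, and hold at least 10 counts over the libraries. The rule found 83 of the 47729 rows. Before the count minimum it found 85, as *Rpl3l* and *Rpl10l* fell out below 10 counts. There were 4 libraries on the C57BL/6 background, 2 from *Tfrc* +/+ *Foxp3* YFP-Cre/+ females (WT) and 2 from *Tfrc* fl/fl *Foxp3* YFP-Cre/+ females (TfR1-deficient), so the Cre allele was carried by both genotypes and only the floxed *Tfrc* alleles differed. Cre and YFP are made from the *Foxp3* locus, and since *Foxp3* lies on the X chromosome and the females are heterozygous, a part of their Treg cells lacks Cre. The study sorted CD25+ YFP+ CD4 T cells, and the labels give the spleen as their source, while a legend of the study adds lymph nodes. Mice other than the males that lack TfR1 in all Treg cells were 6 to 8 weeks old.

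A ribosome is built from a small (40S) and a large (60S) subunit, each a set of proteins folded onto ribosomal RNA. Most of these proteins are present in a single copy per ribosome. In mammals the mRNAs of these proteins carry a 5′ terminal oligopyrimidine (TOP) tract, a run of C and T that begins with a C at the start of the mRNA, through which mTORC1 and LARP1 control their translation and stability. Activated and dividing T cells make many ribosomes. Several steps in making and using ribosomes depend on iron, among them the iron-sulfur protein ABCE1, which recycles ribosomes, and the iron-dependent hydroxylases that modify single ribosomal proteins.

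The TOP tract is the feature these genes share that the rule did not use. RefSeq promoter windows were at hand for 62 of the 83 genes, and each was searched on the transcribed strand alone for a C followed by at least 7 letters C or T, within 50 bases on either side of the start in the table. Such a run was found in 51 of the 62 (82.3%), against 8645 of all 27025 genes in the table (32.0%). It was also found in 11 of 46 ribosome assembly factors (23.9%) and in 7 of 14 other listed genes with TOP mRNAs. Those are translation factors and some genes that are not. The run began within 5 bases of the start in 17 of the 51 and exactly at it in 2, with a median length of 10 bases and at most 20. A start in the table need not be the start used in Treg cells, so a match is a description and not a mapped mRNA end. The genes below were chosen because their runs are the longest (*Rpl27a*), lie exactly at the start (*Rps15a*, *Rpl38*), or belong to genes whose levels are described further on. They are read 5′ to 3′ on the strand of the gene, and capitals mark the run of C and T.
Rpl27a: acttcgtgagCTCCTCCCTTTTCCCTTTCT
Rps15a: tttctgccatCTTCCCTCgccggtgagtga
Rpl38: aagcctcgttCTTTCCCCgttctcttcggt
Rps6: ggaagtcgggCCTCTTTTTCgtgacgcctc
Rps18: gtcacttccgCTCTCTCTTCCacaggaggc
Rpl22l1: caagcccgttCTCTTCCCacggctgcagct
Rpl35: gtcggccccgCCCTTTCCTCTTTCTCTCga
Rps12: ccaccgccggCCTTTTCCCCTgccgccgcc
Rpl7a: ccccacaattCCCTCTTCTTTCTTTCTCCa
Rps19: ccccgtcgttCCCTTTCCC

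On the RefSeq assembly GRCm38.p6 these stretches lie at chr7:109519181-109519210 for *Rpl27a*, chr7:118116128-118116157 for *Rps15a* (minus strand), chr11:114668570-114668599 for *Rpl38*, chr4:86857349-86857378 for *Rps6* (minus), chr17:33955648-33955677 for *Rps18* (minus), chr3:28805501-28805530 for *Rpl22l1*, chr2:39005119-39005148 for *Rpl35* (minus), chr10:23787182-23787211 for *Rps12* (minus), chr2:26910785-26910814 for *Rpl7a* and chr7:24884623-24884641 for *Rps19*, with the plus strand where none is named. In *Rpl22l1* the run began 3 bases after the start of the table, in *Rpl35* 7 bases before it, in *Rps12* 8 bases after it, in *Rpl7a* 12 bases before it and in *Rps19* 41 bases after it, at the very end of the window. For *Rpl7a*, *Rpl38* and *Rps12* the start of the table lies inside the span of the gene record. Windows without such a run were those of *Rpl23*, *Rpl24*, *Rpl7l1*, *Rplp0*, *Rps13*, *Rps19bp1*, *Rps28*, *Rps3*, *Rps3a*, *Rps4x* and *Rpsa*.

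The libraries held 10841939 to 17278448 counts. *Tfrc* was counted at 50.8 and 54.1 CPM (the reads of a gene scaled to the size of its library, with TMM factors) in the 2 WT libraries, against 56.1 and 48.3 CPM where the label was TfR1-deficient, without a difference beyond their spread (log2 fold change -0.01, standard error 0.16, adjusted p = 0.999 in edgeR). Gene counts do not show whether floxed exons were lost, so all directions below rest on the labels. Apart from these libraries, the study reports loss of TfR1 protein in Treg cells of males that lack it in all Treg cells. It also reports less iron in CD25+ YFP+ cells of TfR1-deficient than of WT females. WT replicate 1 and TfR1-deficient replicate 2 stood apart from the other pair: 15 genes of cycling cells summed to 2134 and 2077 CPM in them against 994 and 1052 CPM in WT replicate 2 and TfR1-deficient replicate 1, and 15 myeloid genes to 1526 and 3928 CPM against 424 and 321 CPM. *Csf1r*, the receptor that defines macrophages, was at 124 and 371 CPM in the first pair and at 1.97 and 4.96 CPM in the second, so no library was at 0. Erythroid genes were also spread, with sums of 17.6 and 115 CPM in WT and of 44.7 and 288 CPM in the TfR1-deficient libraries. Markers of Treg and CD4 T cells were present in each library, with *Foxp3* at 194 and 130.3 CPM in WT and 122 and 114 CPM in the TfR1-deficient libraries. The 9 such markers summed to 5992 and 6187 CPM in WT and 5480 and 4679 CPM in the TfR1-deficient libraries. Of them 8 had a log2 fold change below 0 (median -0.26). In 5 (55.6%) both TfR1-deficient libraries lay below both WT libraries, against 18.9% of all genes tested. B cell genes summed to 1297 and 1578 CPM in WT and 1275 and 1112 CPM in the TfR1-deficient libraries. The part of these differences between libraries in the results below was not tested. In bulk RNA, fewer cells of a type and less RNA per cell cannot be told apart. The study describes the libraries as biological replicates without saying which animals they came from, so the p-values measure the spread between these samples.

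As a whole, the ribosomal protein genes took 3.27% and 2.63% of all counts in WT replicates 1 and 2, and 2.48% and 3.01% in TfR1-deficient replicates 1 and 2. The groups overlapped: the highest share was in one WT library and the lowest in one TfR1-deficient library, with the other 2 between them, and the 2 libraries with the higher shares were those with more RNA of cycling and myeloid genes. The mean was 2.95% ± 0.449 (SD, n = 2) in WT and 2.74% ± 0.375 (SD, n = 2) in the TfR1-deficient libraries, a difference of -0.207 percentage points (two-sided exact permutation test, p = 0.667, where 2 libraries against 2 cannot go below 0.333). Counting error was far smaller than this spread, with Wilson 95% intervals of 3.26% to 3.28% for the highest share and 2.47% to 2.49% for the lowest, which cover counting error only. The difference was -0.524 points without WT replicate 2, 0.111 points without WT replicate 1 and 0.0582 points without TfR1-deficient replicate 1, so its sign rested on a single library of either genotype.

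**Figure D1:**
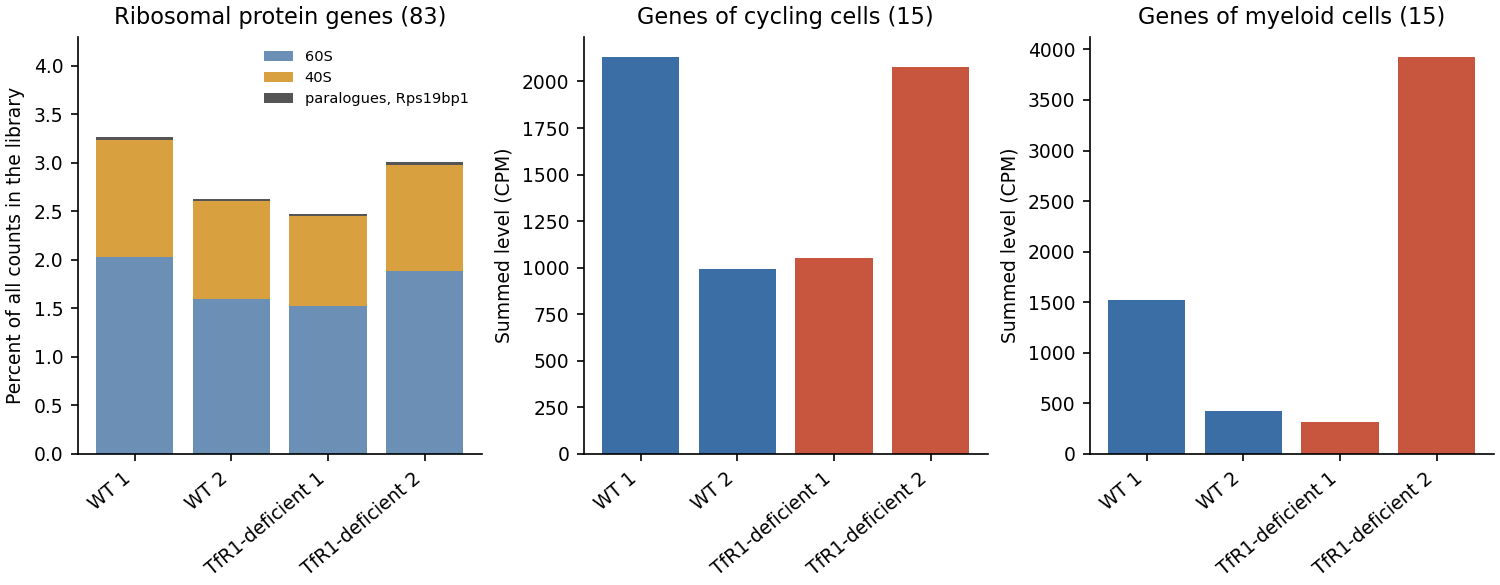
Share of all counts taken by the 83 ribosomal protein genes in each library (left, percent, stacked by subunit), beside the summed CPM of 15 genes of cycling cells (middle) and of 15 myeloid genes (right). Each bar is 1 library. The shares were 3.27% and 2.63% in WT and 2.48% and 3.01% in the TfR1-deficient libraries, and in all 3 panels WT replicate 1 and TfR1-deficient replicate 2 were the higher pair.

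The subunits moved together from library to library. The 45 genes of the 60S subunit took 2.04% and 1.59% of the counts in WT and 1.52% and 1.88% in the TfR1-deficient libraries. For the 31 genes of the 40S subunit the shares were 1.20% and 1.01% in WT and 0.932% and 1.09% in the TfR1-deficient libraries. The ratio of 60S to 40S counts was 1.69 and 1.58 in WT and 1.63 and 1.72 in the TfR1-deficient libraries, so the groups overlapped and the 2 values of each genotype were farther apart than the genotype means (exact permutation test, p = 0.667). Pseudogenes named after ribosomal proteins with -ps in the symbol, 132 rows, took between 0.0139% and 0.0238% of the counts. Copies under other symbols are not in this sum. An example is *Gm9846* (*Rps27rt* in RefSeq), at 32.0 and 40.1 CPM in WT and 32.2 and 32.5 CPM in the TfR1-deficient libraries. Ribosomal protein mRNAs have many near-identical processed pseudogenes, how multi-mapping reads were treated was not given, and reads may thus have been lost or split for single genes.

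Per length, the genes spanned a wide range of levels. The highest mean level over the 4 libraries was that of *Rpl4* with 1863 CPM per kb of transcript, followed by *Rpl32* with 1785, *Rps14* with 1642, *Rplp0* with 1603 and *Rps18* with 1340.4 CPM per kb. The lowest level among canonical subunit proteins was that of *Rpl22* with 34.9 CPM per kb, next to *Rpl39* with 36.4 and *Rps21* with 47.7 CPM per kb. These neighbours in the order lay close together, and the annotated transcript lengths behind them are medians over a gene's coding transcripts, so single ranks are not told apart. The median over the 82 genes that passed the count filter was 321 CPM per kb. Without regard to length, 6 of the 82 were among the top 100 of all 12536 genes tested by mean CPM, and their median was 199 CPM, against 23.2 CPM over all genes tested. *Rpl39l*, a paralogue of *Rpl39* known mainly from the testis, was the only one that did not pass the filter, with 5 and 0 counts in WT and 4 and 3 counts in the TfR1-deficient libraries. *Rpl41* was not analysed here, as no identifier in the table was matched to it.

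Gene by gene, no ribosomal protein gene was called in edgeR's quasi-likelihood test, where a call needed an adjusted p under 0.05 and a log2 difference between genotypes of 0.5 or more in size, and the same held for all genes tested (0 of 12536, 0%). The lowest adjusted p of any of the 82 was 0.911. At an unadjusted p under 0.05 with the same minimum change, 0 of the 82 were lower, where 2.48% of all genes were, and 1 was higher, where 1.60% of all genes were. At an unadjusted p under 0.05 and any size, 3 of the 82 passed (*Rpl7a*, *Rps19* and *Rps19bp1*), beside 5.22% of all genes. DESeq2 likewise called 0 of 83 at its adjusted p, the lowest being 0.627. In 81 of the 82 the log2 fold change was under 0.5 in size, and the median standard error was 0.20, against 0.27 over all genes tested.

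The values leaned to the lower side by a small amount. The log2 fold change was below 0 in 67 of the 82 genes (81.7%), where 48.9% of all genes tested were below 0, with a median of -0.13 against 0.01 over all genes tested and quartiles of -0.24 and -0.02. The medians were -0.12 for the 60S genes, with 38 of 45 below 0, and -0.16 for the 40S genes, with 25 of 31 below 0. Both TfR1-deficient libraries lay below both WT libraries in 16 genes (19.5%), near the 18.9% over all genes tested, and above both in 2 genes (2.44%), where 16.0% of all genes were, so in 64 genes the genotypes overlapped. This lean rested on 2 libraries. Without WT replicate 1 the median was 0.0048 with 40 genes below 0, and without TfR1-deficient replicate 1 it was 0.01 with 37 below 0, while without WT replicate 2 and TfR1-deficient replicate 2 it was -0.26 and -0.29. Ribosomal protein genes are regulated together, so the 82 values are not independent and their count has no test here.

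**Figure D2:**
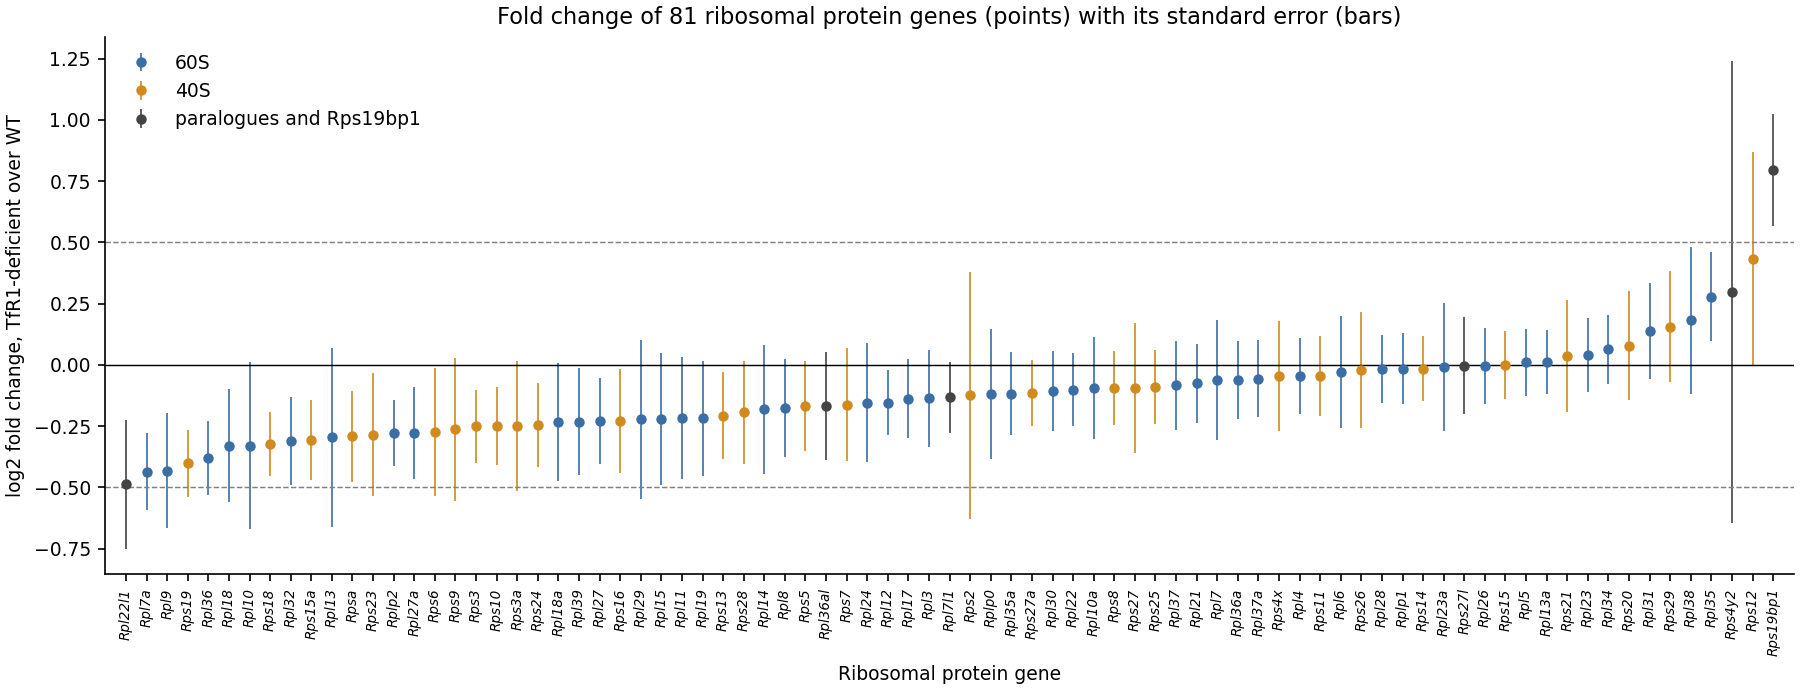
Log2 fold change (TfR1-deficient over WT) of 81 of the 82 tested genes in rising order, with its standard error as a bar, coloured by subunit; dashed lines mark 0.5 in either direction. Of the points, 67 lie below 0, and *Rps19bp1* at 0.80 is the one beyond a dashed line.

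Among the genes with the lowest fold changes, the size of the difference and its spread varied. *Rpl22l1* was at 32.9 and 25.5 CPM in WT and at 17.5 and 24.2 CPM in the TfR1-deficient libraries (log2 fold change -0.49, standard error 0.26, adjusted p = 0.921). The groups did not overlap, but WT replicate 2 and TfR1-deficient replicate 2 were almost level. *Rpl7a*, a 60S protein, was at 219 and 179 CPM in WT and at 144 and 150.2 CPM in the TfR1-deficient libraries (-0.44, standard error 0.16, unadjusted p = 0.0394, adjusted p = 0.911). Here both TfR1-deficient libraries were close to each other and below both WT libraries. *Rpl9*, a 60S protein, was at 419.7 and 298 CPM in WT and at 230.2 and 302 CPM in the TfR1-deficient libraries (-0.43, standard error 0.23), so that its groups overlapped. *Rpl36*, also of the 60S subunit, was at 101 and 109 CPM in WT and at 74.1 and 86.9 CPM in the TfR1-deficient libraries (-0.38, standard error 0.15, adjusted p = 0.911), without overlap. *Rps18*, a 40S protein, was at 764 and 735 CPM in WT and at 582 and 618 CPM in the TfR1-deficient libraries (-0.32, standard error 0.13, adjusted p = 0.911). Its WT libraries nearly agreed, and both TfR1-deficient libraries were below them.

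*Rps19* encodes the 40S protein most often mutated in Diamond-Blackfan anaemia, a failure of red cell production caused by the loss of 1 copy of a ribosomal protein gene. It was at 656 and 647 CPM in WT and at 467 and 519.9 CPM in the TfR1-deficient libraries. The WT libraries differed by less than the genotypes. Its log2 fold change of -0.40 (standard error 0.14, unadjusted p = 0.031, adjusted p = 0.911) stayed between -0.48 and -0.29 with each library left out in turn. Of the 11 genes of this disease that were listed, 9 were below 0 (81.8%), with a median of -0.16. The 82 ribosomal protein genes they belong to gave 81.7% and a median of -0.13, and 48.9% of all genes tested were below 0. Both TfR1-deficient libraries were below both WT libraries in 2 of the 11 (*Rps19* and *Rps10*, 18.2%), where 18.9% of all genes tested gave that order. *Rps10* was at 95.7 and 78.4 CPM in WT and at 71.7 and 74.7 CPM in the TfR1-deficient libraries (-0.25, standard error 0.16). *Rpl5* and *Rpl11*, which with the 5S RNA bind MDM2 when ribosome assembly fails, gave 0.01 (standard error 0.14) and -0.22 (standard error 0.25). *Rpl5* was almost level, at 492 and 441 CPM in WT and 462 and 478 CPM in the TfR1-deficient libraries. *Rps26* also lay near 0, at -0.02 (standard error 0.24).

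On the higher side, *Rps19bp1* was the only gene past the unadjusted p and the minimum change. It was caught by the rule through its name but encodes no ribosomal protein: its product is a nucleolar protein that binds RPS19 and is known as a regulator of SIRT1. It was at 12.8 and 12.7 CPM in WT (156 and 135 counts) and at 23.6 and 20.6 CPM in the TfR1-deficient libraries (409 and 282 counts). Both TfR1-deficient libraries were above both WT libraries, and the replicates of each genotype were closer to each other than to the other genotype. Its log2 fold change of 0.80 (standard error 0.23, unadjusted p = 0.0164, adjusted p = 0.911) stayed between 0.73 and 0.89 with each library left out. The gene lies at chr15:80260614-80264306 (GRCm38.p6), and its promoter window held no run of C and T as searched above.

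Among true ribosomal proteins only *Rpl35*, a 60S protein, had both TfR1-deficient libraries above both WT libraries. It was at 349 and 459.7 CPM in WT and at 509 and 471 CPM in the TfR1-deficient libraries, and WT replicate 2 was close to TfR1-deficient replicate 2. This gave a log2 fold change of 0.28 (standard error 0.18, adjusted p = 0.934). *Rps12*, a 40S protein, had a larger fold change but a wide spread, with 107 and 199 CPM in WT and 276 and 136 CPM in the TfR1-deficient libraries (0.43, standard error 0.44, adjusted p = 0.955). Its groups overlapped, and without TfR1-deficient replicate 1 the log2 fold change was -0.13. *Rpl38*, which is needed for the translation of a set of *Hox* mRNAs, was at 18.2 and 30.5 CPM in WT and at 28.9 and 26.3 CPM in the TfR1-deficient libraries (0.18, standard error 0.30). WT replicate 1 alone was apart from the other 3 libraries. *Rps29*, a 40S protein, was at 25.8 and 33.1 CPM in WT and at 36.1 and 29.5 CPM in the TfR1-deficient libraries (0.16, standard error 0.23), and its groups overlapped.

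Single libraries of a genotype often lay farther apart than the genotype means. In 64 of the 82 genes the 2 WT libraries differed by more than the genotypes on the log2 scale, and in 60 genes the 2 TfR1-deficient libraries did. The genotype difference is between means of 2 libraries, which vary less than single libraries. Part of these counts thus comes from the measure itself. WT replicate 1 held the highest value in 55 genes and TfR1-deficient replicate 1 the lowest in 55. In 36 genes, among them *Rps6*, *Rpl10*, *Rpl13* and *Rplp0*, the libraries followed a single order. It ran from WT replicate 1 as the highest to TfR1-deficient replicate 2, then WT replicate 2, then TfR1-deficient replicate 1. None of these counts was made over all genes tested, so they are not read as particular to ribosomal protein genes. *Rps2*, a 40S protein, was the most spread of the well-counted genes, at 618 and 227 CPM in WT and at 298 and 477 CPM in the TfR1-deficient libraries (-0.12, standard error 0.50). *Rpl13*, a 60S protein, was at 1472 and 766 CPM in WT and at 730.2 and 1092 CPM in the TfR1-deficient libraries (-0.30, standard error 0.37). In both genes WT replicate 1 and TfR1-deficient replicate 2 were the 2 high libraries.

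A group of 13 genes ran the other way, with the lowest value in WT replicate 1: *Rps27*, *Rps25*, *Rpl37*, *Rpl37a*, *Rplp1*, *Rpl31*, *Rpl38*, *Rpl34*, *Rps20*, *Rps29*, *Rps12*, *Rps21* and *Rpl35*. Chosen by that value, they had a median log2 ratio of WT replicate 1 to WT replicate 2 of -0.36, where the median over the 82 was 0.22. Their transcripts had a median annotated length of 552 bases, against 757 bases for the other 69. Over the 82 genes, which are not independent, Pearson's r of that log2 ratio was 0.24 with log2 length and 0.05 with log2 mean level. The genotype fold change had an r of 0.02 with log2 length and 0.18 with GC content, over the same 82 genes. *Rps27*, a 40S protein with a zinc finger, was at 210.2 and 339 CPM in WT and at 283 and 231 CPM in the TfR1-deficient libraries (-0.09, standard error 0.26), so that the 2 libraries high in *Rps6* were the low ones here.

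**Figure D3:**
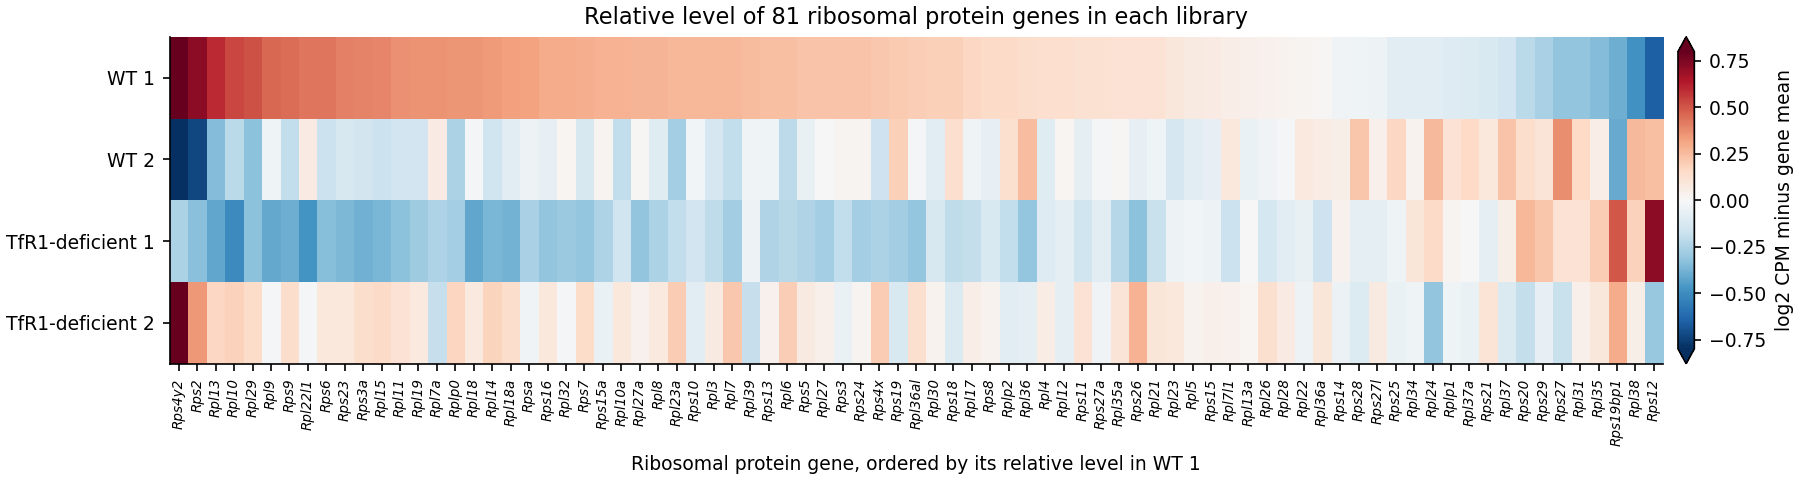
Level of 81 of the 82 tested genes in each library as log2 CPM minus the mean of the gene over the 4 libraries, with genes ordered by their value in WT replicate 1. WT replicate 1 and TfR1-deficient replicate 1 mirror each other over most genes, and the 13 genes that were lowest in WT replicate 1 lie toward the right end.

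Set library against library, the fold changes depended on the pair. The median log2 ratio over the 82 genes was -0.42 for TfR1-deficient replicate 1 over WT replicate 1 and 0.08 for TfR1-deficient replicate 2 over WT replicate 2. Between the 2 libraries rich in cycling and myeloid genes, TfR1-deficient replicate 2 over WT replicate 1, it was -0.15 with 61 genes below 0, and between the 2 libraries poor in them, TfR1-deficient replicate 1 over WT replicate 2, it was -0.15 with 68 below 0. In 54 of the 82 genes (65.9%) the TfR1-deficient library was the lower one in both of these pairs, against 31.0% of all genes tested, and in 7 genes (8.54%) it was the higher one in both, against 31.6%. These pairs were chosen after the values had been seen and each holds 1 library per genotype, so there is no replicate within a pair. The 2 WT libraries differed by a median of 0.22 and the 2 TfR1-deficient libraries by -0.24 (replicate 1 over replicate 2), both larger than the difference within either pair.

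**Figure D4:**
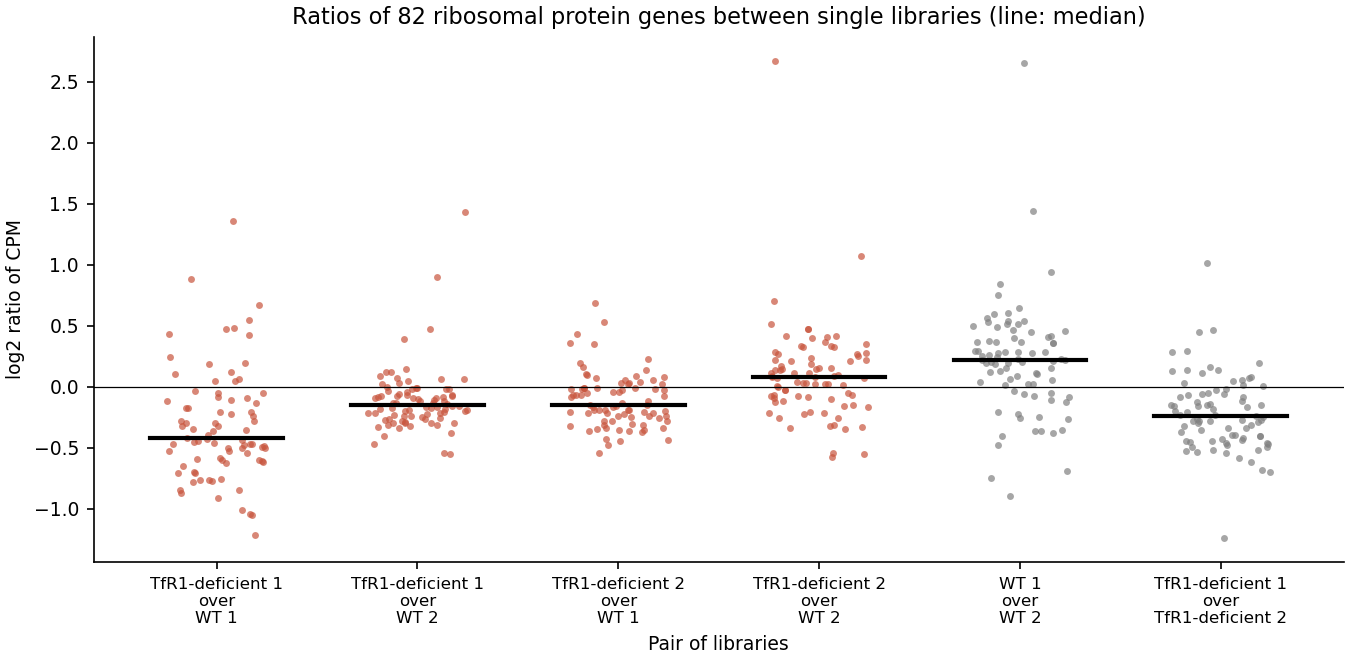
Log2 ratio of CPM between single libraries for the 82 tested genes (points) with the median of each pair (line). Ratios between genotypes are red and ratios between replicates grey, and the medians run from -0.42 to 0.08 between genotypes, against 0.22 and -0.24 between replicates.

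The P stalk, formed by *Rplp0*, *Rplp1* and *Rplp2*, recruits the GTPases of translation. *Rplp0* was at 2065 and 1357 CPM in WT and at 1338 and 1817 CPM in the TfR1-deficient libraries (-0.12, standard error 0.27), with overlapping groups. *Rplp1* was nearly level, at 259 and 302 CPM in WT and at 283 and 273 CPM in the TfR1-deficient libraries (-0.01, standard error 0.15). *Rplp2* was at 93.2 and 91.4 CPM in WT and at 73.1 and 79.1 CPM in the TfR1-deficient libraries (-0.28, standard error 0.14, adjusted p = 0.911), without overlap. Only in *Rplp2* did the genotypes lie apart, and the difference between the 3 genes was not tested. *Rps6*, the substrate of the S6 kinases downstream of mTORC1, was at 789 and 521 CPM in WT and at 462 and 621 CPM in the TfR1-deficient libraries (-0.27, standard error 0.26). Its groups overlapped, and WT replicate 1 was the high library.

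The proteins modified by iron-dependent hydroxylases are RPL8, RPL27A and RPS23, the substrates of RIOX1, RIOX2 and OGFOD1. *Rpl8* was at 568 and 441 CPM in WT and at 394 and 498 CPM in the TfR1-deficient libraries (-0.18, standard error 0.20). *Rpl27a* was at 117 and 97.9 CPM in WT and at 78.0 and 99.4 CPM in the TfR1-deficient libraries (-0.28, standard error 0.19), and *Rps23* at 223 and 154 CPM in WT and at 131 and 178 CPM in the TfR1-deficient libraries (-0.28, standard error 0.25). In all 3 the groups overlapped and TfR1-deficient replicate 1 was the lowest library. Of the enzymes, *Ogfod1*, singled out after its values were seen, was at 55.7 and 62.0 CPM in WT and at 44.9 and 42.9 CPM in the TfR1-deficient libraries (-0.42, standard error 0.15, unadjusted p = 0.0354, adjusted p = 0.911), below the minimum change of 0.5. Abundance of the mRNA says nothing of hydroxylation of the protein, which was not measured.

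Genes on the X chromosome were *Rpl10*, *Rpl36a*, *Rpl39* and *Rps4x*, with a median of -0.15. *Rpl10*, a 60S protein needed for the last steps of subunit maturation, was at 403 and 239.9 CPM in WT and at 196 and 317 CPM in the TfR1-deficient libraries (-0.33, standard error 0.34), and *Rps4x* at 548 and 422 CPM in WT and at 396 and 544 CPM in the TfR1-deficient libraries (-0.05, standard error 0.22). In both, each TfR1-deficient library had a WT library above it and WT replicate 2 lay between the TfR1-deficient libraries. *Rpl39*, a small 60S protein, was at 26.4 and 21.7 CPM in WT and at 21.5 and 19.5 CPM in the TfR1-deficient libraries (-0.23, standard error 0.22), so that its groups did not overlap, though WT replicate 2 and TfR1-deficient replicate 1 were almost level. *Rpl36a*, also of the 60S subunit, was at 56.2 and 58.2 CPM in WT and at 49.9 and 59.8 CPM in the TfR1-deficient libraries (-0.06, standard error 0.16), with overlap. Of the genes proposed to mark specialised ribosomes, *Rpl10a* gave -0.10 (standard error 0.21) and *Rps25*, which supports initiation at internal ribosome entry sites, gave -0.09 (standard error 0.15), beside the 0.18 of *Rpl38* above.

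Paralogues were read against their parents as ratios of CPM, which do not depend on library scaling. *Rpl22* is needed for the development of alpha-beta T cells and its protein is known to repress *Rpl22l1*. The ratio of *Rpl22l1* to *Rpl22* was 0.736 and 0.549 in WT and 0.415 and 0.566 in the TfR1-deficient libraries, with WT replicate 2 just below TfR1-deficient replicate 2, so the groups overlapped (exact permutation test, p = 0.667). *Rpl22* itself was at 44.7 and 46.4 CPM in WT and at 42.2 and 42.7 CPM in the TfR1-deficient libraries (-0.10, standard error 0.15). The ratio of *Rps27l*, a target of p53, to *Rps27* was 0.112 and 0.0736 in WT and 0.0812 and 0.110 in the TfR1-deficient libraries, and that of *Rpl36al* to *Rpl36a* was 0.751 and 0.625 in WT and 0.596 and 0.674 in the TfR1-deficient libraries. For *Rpl7l1* over *Rpl7* it was 0.270 and 0.379 in WT and 0.337 and 0.275 in the TfR1-deficient libraries. All of these groups overlapped, with permutation p-values of 0.667 or 1. *Rps27l* and *Rpl36al* had log2 fold changes of -0.0034 (standard error 0.20) and -0.17 (standard error 0.22), and reads of such close copies may be shared. *Rps4y2*, listed by RefSeq as the transcribed pseudogene *Rps4l*, was barely counted, at 2.95 and 0.469 CPM in WT and at 1.27 and 2.99 CPM in the TfR1-deficient libraries (0.30, standard error 0.94).

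**Figure D5:**
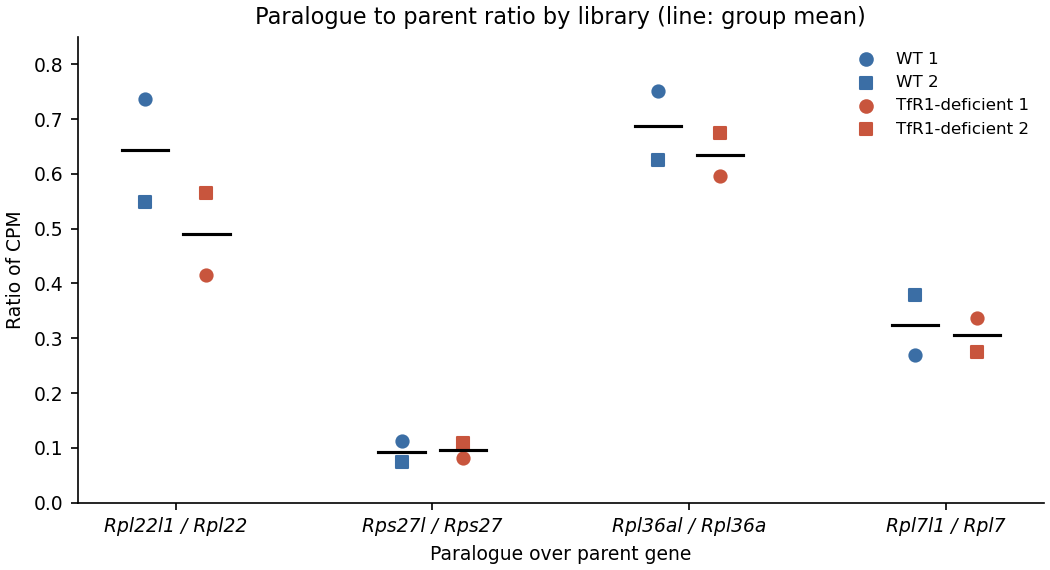
Ratio of CPM of a paralogue to its parent gene in each library (points) with the mean of each genotype (line), for 4 pairs. In each pair the ranges of WT and TfR1-deficient libraries overlap, with the widest gap between means for *Rpl22l1* over *Rpl22*.

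The rest of the machinery was read from the same fit, and none of its listed genes was called at the adjusted p. For the counts below 0 that follow, the shares were 48.9% of all genes tested and 81.7% of the ribosomal protein genes. The 4 host genes of small nucleolar RNAs that were tested had a median of -0.11 with 3 below 0. A list of 19 other genes with TOP mRNAs held translation factors, but also *Vim*, *Hnrnpa1*, *Nap1l1*, *Tpt1*, *Naca* and *Btf3*. Of these 19 genes, 15 were below 0, with a median of -0.08. Their summed level followed the order of the ribosomal protein genes in part. It was 11998 and 9341 CPM in WT and 9725 and 10440.4 CPM in the TfR1-deficient libraries. Of 52 ribosome assembly factors 27 were below 0, with a median of -0.00060, and of 11 RNA polymerase I genes 9 were below 0, with a median of -0.10. The 12 iron-dependent enzymes of the translation machinery had a median of -0.06 and 10 below 0. For the 14 targets of p53 and nucleolar stress the median was 0.0042 with 7 below 0, and for the 7 dedicated chaperones of ribosomal proteins it was -0.04. Of the 19 genes of mTORC1, LARP1 and Myc, 10 were below 0 with a median of -0.03, and 1 passed the unadjusted p and the minimum change, on the higher side, as 1.60% of all genes tested did. That gene was *Rheb*, the GTPase that activates mTORC1, at 106 and 79.7 CPM in WT and at 142 and 124 CPM in the TfR1-deficient libraries (0.52, standard error 0.19, unadjusted p = 0.0422, adjusted p = 0.911). Ribosomal protein genes with a run of C and T in the window had a median log2 fold change of -0.16 (50 genes, 41 below 0). Those with a window and no run had -0.15 (11 genes, 9 below 0), and those without a window -0.09 (21 genes, 17 below 0). Of the 51 runs found, 17 began within 5 bases of the start in the table, so genes with and without a TOP mRNA were not compared.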

How the data were processed

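RNA of sorted Treg cells was sequenced from 2 WT and 2 TfR1-deficient libraries made with a low-input kit. Per the labels, reads were trimmed with Trim Galore 0.6.7, mapped with STAR 2.7.9a to mm10 and assigned with featureCounts, while the methods of the study name mm9. The authors deposited raw read counts for each Ensembl gene and library. Strand, multi-mapping reads and annotation release were not given in the sources used here. With totals of 10841939 to 17278448 counts, the spread between replicates and not counting error limited most of these genes.

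Symbols were matched for 32799 of 47729 identifiers. After filterByExpr, 12536 genes were left. TMM factors and edgeR 4.0.16 (quasi-likelihood test, R 4.3.3) were used on them with a single term for genotype, and p-values were adjusted over all of them by Benjamini-Hochberg. A call needed an adjusted p under 0.05 and a log2 difference of 0.5 or more in size. Standard errors were derived from the F statistic of each gene. Shares and ratios, among them 5 paralogue ratios, were compared by exact permutation in scipy 1.17.1. DESeq2 1.42.0, other scalings, filters and minimum changes, a replicate block and leaving out each library were alternatives. The fits were tested on simulated data. There edgeR called 6 of 63 genes changed by 1 on the log2 scale, 42 of 66 changed by 2 and 64 of 68 changed by 3. A lack of calls is thus not evidence of no change. Transcript lengths and GC content came from GENCODE vM1 by identifier, coordinates and promoter windows from RefSeq (GRCm38.p6) by symbol. Replicates of a genotype differed beyond counting noise (chi-square per degree of freedom 29.3 in WT and 45.7 in TfR1-deficient). Genes to be named were the members of lists by role, the most and least abundant, those with the largest changes, and up to 3 genes per pathway list past the unadjusted p. Some listed genes are not reported by name here. The members and lists were chosen with earlier results of these data known.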

Additional observations from a re-analysis of the deposited data

How the results depend on the processing

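The count of ribosomal protein genes called at the adjusted p was 0 under every alternative run, and apart from the crossed numbers below their lowest adjusted p was 0.515, with no filter beyond 1 count. At the unadjusted p, the count of lower genes went from 0 to 2 with no minimum change, and ran from 0 to 2 with each library left out. The count of higher genes went from 1 to 0 when the minimum change was raised to 1, and ran from 0 to 2 with each library left out. Other scalings, the stricter filter and DESeq2 kept the median between -0.13 and -0.09, against shifts of up to 0.05 in the median of all genes. Leaving out each library moved it between -0.29 and 0.01, and the difference in share between -0.524 and 0.111 points. Of the 82 tested genes, 54 changed the sign of their fold change when 1 library was left out and 28 did not. Over all alternatives of single genes, 125 of 983 values changed sign and 0 changed a call. The cause of these shifts was not tested beyond the construction of each alternative.

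Libraries with the same replicate number did not deviate alike from their genotype means (correlation of deviations -0.61). Whether they were handled together is not given, and this correlation cannot show it. With a replicate block 0 genes were called at the adjusted p, the median was -0.13, 0 ribosomal protein genes were lower and 0 higher at the unadjusted p, against 1 higher without the block. Crossing the numbers, a choice made after seeing the data, called 150 higher and 210 lower genes, of which 0 were ribosomal protein genes, though 4 ribosomal protein genes (*Rpl9*, *Rps19*, *Rps12* and *Rpl7a*) passed the adjusted p with smaller changes.

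Over all genes, edgeR called 0 at the adjusted p, DESeq2 6 higher and 28 lower, and edgeR with no filter beyond 1 count 167 higher and 95 lower. On the simulated data DESeq2 called 26 of 12336 unchanged genes and edgeR 4 of 11999. Some of the calls by DESeq2 may thus be false. At the unadjusted p the counts were 200 higher and 311 lower, 650 and 445 with no filter beyond 1 count, and 70 and 141 with the block.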
